A study of Mus musculus with 2 samples.

Results

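The genes described here are the calcium pumps of the sarcoplasmic reticulum (Atp2a1, Atp2a2 and Atp2a3), the small membrane proteins that hold pumps back (Sln, Pln and Mrln) and the proteins that hold calcium in the lumen (Srl, Casq1, Casq2 and Hrc). They were chosen by symbol among annotated genes, and are 10 of the 14451 annotated mouse genes that had at least 1 read. All 10 had reads in each library. RNA of gastrocnemius muscle from female B6CASTF1/J mice, a cross of the C57BL/6J and CAST/EiJ strains, aged 18 to 20 months was read as long reads, in which 1 read follows 1 cDNA molecule. There were 2 libraries of 1 group, labelled biological replicates 1 and 2, each started from 2 µg of RNA, with no treatment and no second group. The labels give each library its own biosample record and both the same donor record, and do not say whether the RNA came from separate animals, so the p-values below speak only of these 2 libraries, whose spread may be technical.

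In a muscle fibre, calcium leaves the sarcoplasmic reticulum through the ryanodine receptor to start contraction, and SERCA pumps use ATP to return it so that the fibre relaxes. Atp2a1 encodes SERCA1, the pump of fast fibres, Atp2a2 encodes SERCA2, the pump of slow fibres and the heart, and Atp2a3 encodes SERCA3, known from platelets, lymphocytes and endothelium. Sarcolipin (Sln), phospholamban (Pln) and myoregulin (Mrln) are short membrane proteins that bind the pumps and lower their activity. Calsequestrins (Casq1 in skeletal muscle, Casq2 in slow fibres and the heart), sarcalumenin (Srl) and the histidine-rich calcium binding protein (Hrc) bind calcium inside the store.

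The short exon and the alternative 3′ ends of the pump genes, and 3 bases at a splice site of Srl, are the sequence features on which the results below turn. All sequences are the GENCODE M21 reference transcripts on mm10, written 5′ to 3′, and none was read from the libraries. Each pump gene has an annotated coding exon 2 of 18 nt. It is shown with 15 bases of its neighbours, with exon 2 in capitals.
Atp2a1, minus strand, chr7:126462500-126462517: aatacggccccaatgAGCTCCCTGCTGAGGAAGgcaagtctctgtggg
Atp2a2, minus strand, chr5:122500931-122500948: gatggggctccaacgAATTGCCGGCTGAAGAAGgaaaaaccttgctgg
Atp2a3, plus strand, chr11:72970596-72970613: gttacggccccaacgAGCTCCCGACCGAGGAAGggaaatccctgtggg
Exon 2 of Atp2a1 shared 15 of 18 bases with that of Atp2a3 and 13 of 18 with that of Atp2a2.

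The 3′ ends decide the last amino acids of the pump. In the following lines the end of the shared exon is in lower case and what follows it, up to and including the stop codon, is in capitals.
Atp2a1 with exon 22, the SERCA1a form of 994 codons: ctcggaactatctggaggGATAA
Atp2a1 without exon 22, the SERCA1b form of 1001 codons: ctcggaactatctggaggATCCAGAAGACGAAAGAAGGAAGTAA
Atp2a2 with exon 20 joined to the last exon, the SERCA2a form of 998 codons: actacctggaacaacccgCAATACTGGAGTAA
Atp2a2 read on past the end of exon 20, the SERCA2b form of 1044 codons: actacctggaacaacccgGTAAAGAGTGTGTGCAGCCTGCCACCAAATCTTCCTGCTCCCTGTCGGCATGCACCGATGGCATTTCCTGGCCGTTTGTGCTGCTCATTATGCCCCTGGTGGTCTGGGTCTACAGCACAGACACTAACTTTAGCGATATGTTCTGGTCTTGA
The SERCA1b tail adds a run of charged residues, and the SERCA2b tail is the longest of the 4.

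The libraries held 1117891 and 975696 reads of annotated mouse genes (replicates 1 and 2), and levels are given as CPM, reads per 1000000 of these. At that depth 3 reads, the most that a count of 0 allows, were worth 2.68 and 3.08 CPM. A read here stands for 1 cDNA, so CPM was not divided by gene length. Any loss of long or of short molecules before or during reading was not corrected. The 5 skeletal muscle markers summed to 152566 and 145436 CPM, while the cardiac markers Nppa, Tnni3 and Ryr2 were at 0 in both libraries, Tnnt2 had 1 and 0 reads and Myh6 0 and 5. Long genes leaned to replicate 2 and short ones to replicate 1: with ratios taken as replicate 1 over replicate 2, the median on the log2 scale was 0.25 for the 1276 tested genes whose most read model was under 1000 nt and fell to -0.32 for the 2402 genes of 3500 nt or more, against -0.02 over all 8394 tested genes. Slow fibre genes also differed: all 10 of the slow fibre list were higher in replicate 2, and their sum went from 794.4 CPM in replicate 1 to 5243 CPM in replicate 2.

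Together the 10 genes took 15.9% of annotated reads in replicate 1 and 20.1% in replicate 2. Atp2a1 alone was 95.4% of that in each library, and the other 9 genes summed to 7295 and 9289 CPM. Of the 10 genes, 8 had the 10 reads in all that the test required, and 6 of these differed by the exact binomial test (Benjamini-Hochberg over all tested genes), 1 toward replicate 1 and 5 toward replicate 2. The test called 11.6% of all genes, 4.46% toward replicate 1 and 7.15% toward replicate 2. These shares are not matched for read depth: in genes with many reads the test calls small differences, such as 1.18-fold for Casq1. When scatter between libraries was added, as a common dispersion in edgeR's exact test, 1 of the 8 was called, Atp2a2, which was higher in replicate 2, against 0.286% of all genes in either direction and 0.191% toward replicate 2. This dispersion was estimated from the same 2 libraries taken as 1 group, so it includes the differences being tested. It is not a separate measure of scatter, here or wherever scatter is said to be added below. Over the 8 genes the median log2 ratio (replicate 1 over replicate 2) was -0.35. The 10 genes were chosen with earlier results of these data known, so this count is a description of them.

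**Figure D1:**
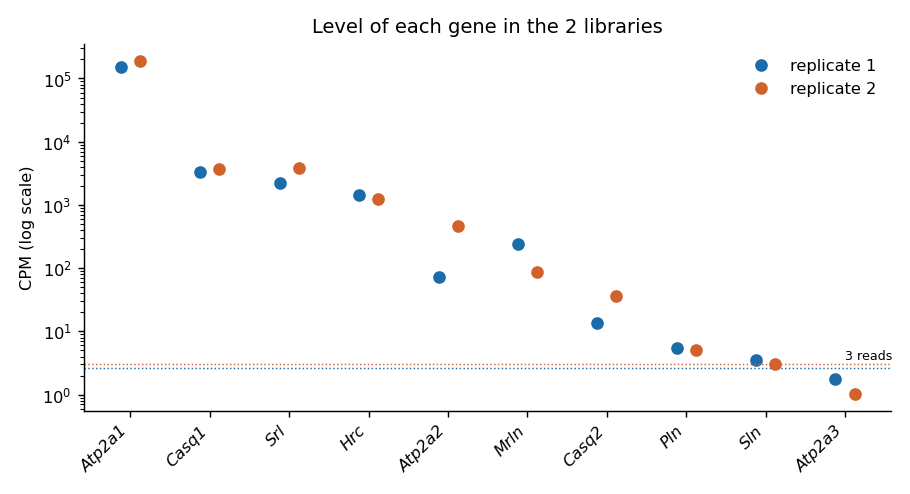
Level of each gene in replicate 1 (blue) and replicate 2 (orange) in CPM on a log axis, with genes in order of their mean; dotted lines mark 3 reads in each library. Atp2a1 stands at 151696 and 191442 CPM, far above the next gene, and Pln, Sln and Atp2a3 lie near or under the lines.

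Atp2a1 (ENSMUSG00000030730.12, chr7:126445858-126463108, minus strand) ranked 1 among the annotated genes of these libraries by mean CPM. It had 169580 reads in replicate 1 and 186789 in replicate 2, or 151696 and 191442 CPM, a mean of 171569 ± 28104 CPM (SD, n = 2). Replicate 2 was the higher library, by 1.38-fold after TMM scaling (95% interval of counting 1.37 to 1.38), a difference that was called from counting error alone and not with scatter added (edgeR exact test, adjusted p = 1). The fast fibre list did not move one way: of its 11 genes, 6 were called toward replicate 1 and 5 toward replicate 2 by the exact binomial test. Of all genes 4.46% and 7.15% were. With scatter added 2 of them were called, against 0.191% of all genes toward replicate 2. These were the fast myosins Myh2 (7.11-fold, 6.34 to 7.99, edgeR exact test, adjusted p = 0.000491) and Myh1 (5.82-fold, 5.51 to 6.16, adjusted p = 0.00276), both higher in replicate 2. The 5 genes toward replicate 2 had leading models of 2887 to 6340 nt. Those toward replicate 1 had 700 to 953 nt, apart from Tnnt3 at 3352 nt. The part of length in these directions, and in that of Atp2a1 (3485 nt), was not tested.

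Nearly every Atp2a1 read ran through the whole gene. Models that hold both the start and the stop codon took 95.7% of Atp2a1 reads in replicate 1 and 97.0% in replicate 2. The share of reads whose model held a given annotated intron went from 99.4% at intron 21 to 96.3% at intron 3 in replicate 1, and from 99.6% to 97.4% in replicate 2. Reads in complete chains, which are models of the class Known, of the class NIC (annotated splice sites in another combination) or of the class NNC (at least 1 splice site not annotated), were 95.75% (95% Wilson interval 95.65 to 95.85) in replicate 1 and 97.02% (96.94 to 97.09) in replicate 2. That difference of 1.27 percentage points was called by Fisher's exact test (adjusted p = 1.8e-88), as it was for 1.6% of all genes. The rest were mostly of the class ISM, which as a rule matches part of an annotated chain, with 7037 and 5512 reads. Classes are as deposited, and not every Atp2a1 chain keeps to these definitions. Some chains with an intron that is not annotated carried both NIC and NNC, and an ISM chain with 600 and 352 reads also held such an intron.

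**Figure D2:**
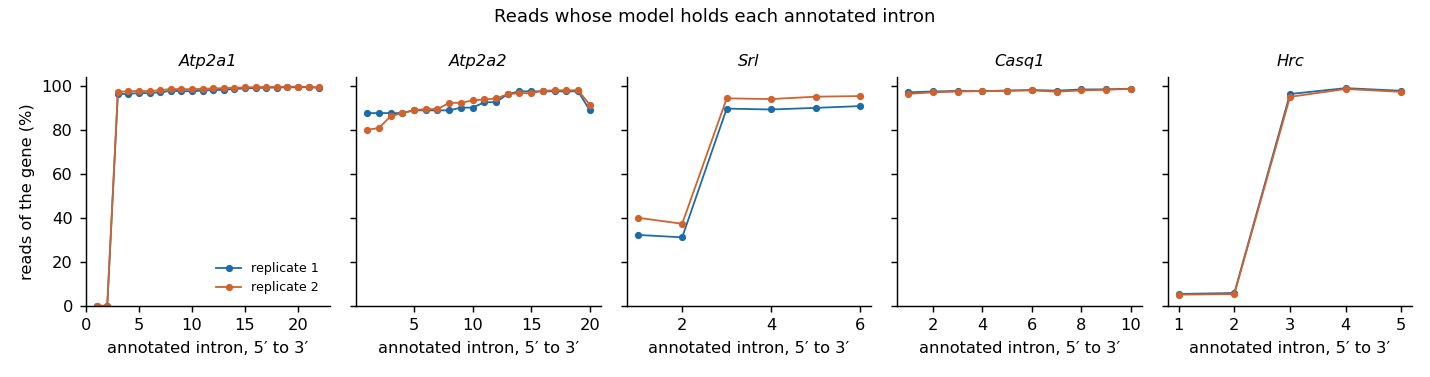
Share of each gene's reads (percent, vertical axis) whose model holds each annotated intron of the reference transcript, from the 5′ to the 3′ end (horizontal axis), in replicate 1 (blue) and replicate 2 (orange). Atp2a1 and Casq1 are near 100% over most introns, introns 1 and 2 of Atp2a1 are near 0, and Hrc drops to about 5% at its first introns.

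No Atp2a1 read was assigned to an annotated transcript. The leading chain was of the class NNC, had 22 exons and 3485 nt, and took 159541 reads in replicate 1 and 177540 in replicate 2, or 94.1% and 95.0% of the gene's reads. Among complete chains its share was 98.26% (98.19 to 98.32) and 97.97% (97.91 to 98.04). The difference of 0.284 percentage points was called (Fisher's exact test, adjusted p = 7.16e-07), against 0.454% of genes called for their leading isoform. Each library had the same chain in front, and the next chain, of the class ISM, had 0.618% and 0.468% of Atp2a1 reads.

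The leading chain differs from the annotated reference transcript (ENSMUST00000032974.12, 23 exons, 3477 nt) only at the 5′ end. It has no exon 2 of 18 nt. Its exon 1 runs on for 26 nt past the annotated end and is then joined to exon 3 by the intron chr7:126462188-126462778, so the chain is 8 nt longer than the reference. Of the reads with an intron within 40 nt of the end of exon 1, 163110 of 163132 in replicate 1 and 181747 of 181770 in replicate 2 joined exon 1 to exon 3. The model with both annotated introns around exon 2 had 0 reads in each, which allows a share of up to 0.00184% and 0.00165% (3 reads, counting error only). The intron that follows exon 1 in the annotation had 4 and 6 reads on its own, and the one that follows exon 2 had 36 and 24.

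The joins themselves were not all alike. The intron of the leading chain made up 99.4% and 99.2% of the joins of exon 1 to exon 3. The next one, with exon 3 shortened by 5 nt, had 522 and 667 reads, and another, with exon 1 longer by 4 nt, had 365 and 519. Skipping exon 2 with both annotated ends kept had 40 and 45 reads. In the reference sequence, leaving out exon 2 with no other change shortens the coding part from 994 to 988 codons. The 26 added nt less the 18 nt of exon 2 give 8 nt, which is not a multiple of 3. The deposited models give positions and no bases, so whether the reads carry the letters of exon 2 was not tested.

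The next 4 most read chains of Atp2a1 among those of the classes NIC and NNC all lacked exon 2 as well. They had 495 and 633, 266 and 387, 260 and 323, and 107 and 148 reads. The first 2 of them carried the other joins just given, and the last 2 shifted intron ends farther along the gene by 3 or 4 nt. In all, 937 different chains of Atp2a1 were seen and 240 of them in both libraries.

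Exon 2 of Atp2a2, also of 18 nt, was read as annotated. Of the Atp2a2 reads that reached the end of exon 1, 71 of 72 in replicate 1 (98.6%, 92.5 to 99.8) and 364 of 388 in replicate 2 (93.8%, 91.0 to 95.8) held both annotated introns around it. The remaining 1 and 24 reads joined exon 1, longer by 4 nt, to exon 3 through 1 intron, chr5:122500814-122501563. No Atp2a3 read reached exon 2.

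At the 3′ end Atp2a1 was almost wholly of the adult SERCA1a form. Exon 22, of 42 nt (chr7:126446545-126446586), holds the last 2 coding bases before the stop codon. Of the reads with an intron leaving the end of exon 21, exon 22 was present and followed by the last annotated intron in 168123 of 168672 in replicate 1 (99.7%) and 185503 of 186224 in replicate 2 (99.6%). Exon 22 was skipped, which gives the SERCA1b tail printed above, in 85 reads (0.0504%, 0.0408 to 0.0623) and 131 reads (0.0704%, 0.0593 to 0.0835). SERCA1b is known as the form of newborn and regenerating muscle. A further 312 and 399 reads had exon 22 with no intron after it. The share of the leading last intron over all spliced reads of the gene was 99.25% and 99.35%, a difference of 0.1 percentage points in favour of replicate 2 that was not called (Fisher's exact test, adjusted p = 0.126). Over all genes 0.108% were called for that share, and none of the 6 genes tested here, of which 1, Atp2a1, was under 0.05 before adjustment.

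Atp2a2 (ENSMUSG00000029467.15, chr5:122453513-122502225, minus strand) was a minor pump in both libraries and the gene here that differed most. It had 81 reads in replicate 1 and 455 in replicate 2, or 72.5 and 466.3 CPM, with a mean of 269.4 ± 278.5 CPM (SD, n = 2). Replicate 2 was 7.01-fold higher (5.53 to 9), with an adjusted p of 2.91e-81 by the exact binomial test and 0.000969 by edgeR's exact test with common dispersion. The slow fibre list, which was chosen with earlier results of these data known, moved with it. By the exact binomial test 10 of 10 of its genes were called higher in replicate 2, against 7.15% of all genes. With scatter added 5 of them were called, against 0.191% of all genes toward replicate 2. They were led by the slow myosin Myh7 at 163.7 and 2388 CPM (15.9-fold, 13.7 to 18.6). Myh1 and Myh2 of the fast fibre list moved the same way, as given above. In RNA of whole tissue, fewer fibres of a type and less RNA per fibre cannot be told apart. The leading Atp2a2 model has 3984 nt, in the length class with a median log2 ratio (replicate 1 over replicate 2) of -0.32, against -2.80 for Atp2a2. The parts of length and of fibre makeup in the Atp2a2 difference were not tested. The cardiac markers named above were at 0 to 5 reads, and smooth muscle markers summed to 160.1 and 141.4 CPM with none of 4 tested called.

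**Figure D3:**
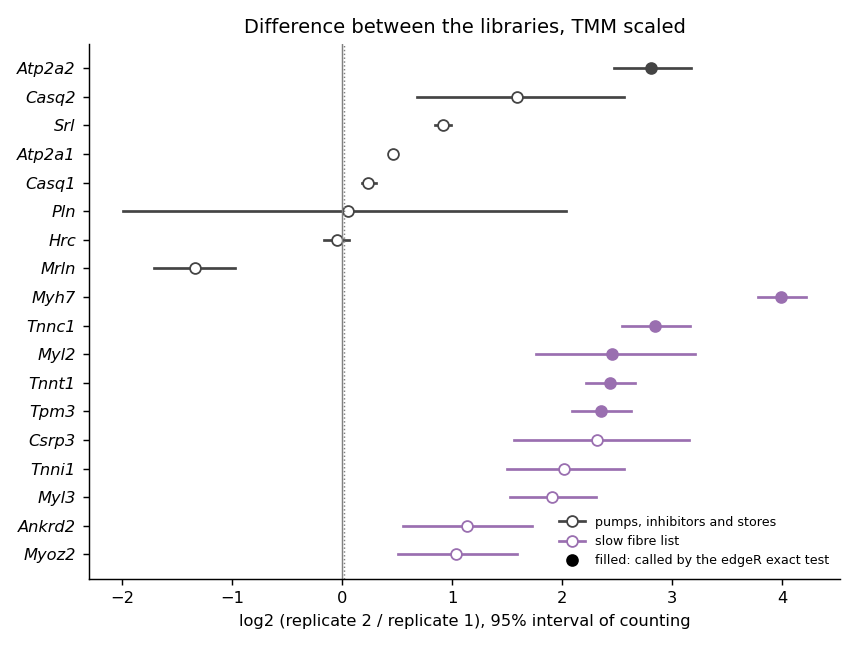
Log2 ratio of replicate 2 over replicate 1 after TMM scaling, with the 95% interval of counting (lines), for the 8 tested pump, inhibitor and store genes (grey) and the slow fibre list (purple); filled points were called by edgeR's exact test with common dispersion and the dotted line is the median of all genes. Atp2a2 lies among the slow fibre genes, and Mrln is on the other side of 0.

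Most Atp2a2 reads were the muscle form SERCA2a. Of the reads with the intron before exon 20, exon 20 was joined to the last exon in 72 of 79 in replicate 1 (91.1%, 82.8 to 95.6) and 415 of 446 in replicate 2 (93.0%, 90.3 to 95.1). Reads that ran on past the end of exon 20, as in the widely expressed SERCA2b form, were 7 (8.86%, 4.36 to 17.2) and 22 (4.93%, 3.28 to 7.36). The intervals overlap, and the last intron share of Atp2a2 was not called (91.1% against 92.7%, Fisher's exact test, adjusted p = 1). Replicate 2 also had 9 reads with other introns after exon 20, a form with 0 of 79 reads in replicate 1, where up to 3.8% would be allowed.

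Complete annotated chains carried most of these reads. The SERCA2a chain (ENSMUST00000177974.7, 21 exons, 3984 nt) had 64 and 326 reads and the SERCA2b chain (ENSMUST00000031423.9, 20 exons, 4486 nt) had 5 and 21. Among chains that are not annotated, the most read was that without exon 2, with 0 and 22 reads. A chain with 1 more exon between exon 20 and the last exon had 0 and 4 reads, and the next 3 had 1 and 3, 1 and 2, and 0 and 2 reads. Models that hold both the start and the stop codon took 66 of 81 reads and 364 of 455 (81.5% and 80%).

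Atp2a3 (ENSMUSG00000020788.15, chr11:72961169-72993044, plus strand) was at the limit of detection, with 2 reads in replicate 1 and 1 in replicate 2. The 1 spliced read had 16 exons and ended with the last intron of the annotated transcripts ENSMUST00000021142.7 and ENSMUST00000108486.7. The other 2 reads were unspliced. Markers of the cells in which this pump is known were also low: the platelet and lymphocyte list had 9 and 5 reads in all, and the endothelial list 74.2 and 50.2 CPM with none of 5 tested genes called, nor any under an unadjusted 0.05 by edgeR's exact test.

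Of the 3 short inhibitors only Mrln was well above the floor. Their coding parts are printed to show how short these genes' products are, with the start and stop codons in capitals.
Sln, 31 codons, chr9, plus strand: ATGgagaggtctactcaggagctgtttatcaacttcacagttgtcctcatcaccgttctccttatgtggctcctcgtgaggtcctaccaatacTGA
Pln, 52 codons, chr10, plus strand: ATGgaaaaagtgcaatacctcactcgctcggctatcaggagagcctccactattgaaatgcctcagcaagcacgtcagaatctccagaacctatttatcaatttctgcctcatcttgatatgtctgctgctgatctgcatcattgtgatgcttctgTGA
Mrln, 46 codons, chr10, plus strand: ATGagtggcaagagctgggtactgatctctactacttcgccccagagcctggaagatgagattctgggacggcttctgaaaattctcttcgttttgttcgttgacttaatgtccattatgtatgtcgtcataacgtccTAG
Each lies within 1 read of the kind taken here, so a read can hold the whole coding part.

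Mrln (ENSMUSG00000019933.7, chr10:70204664-70219711) had 265 reads in replicate 1 and 84 in replicate 2, or 237.1 and 86.1 CPM. It was the 1 gene of the 10 called higher in replicate 1, by 2.53-fold (1.97 to 3.27), with an adjusted p of 3.07e-13 by the exact binomial test and 1 by edgeR's exact test. Its leading model has 443 nt, in the length class whose median also lies on the side of replicate 1 (0.25 on the log2 scale against 1.33 for Mrln), and the part of length in the difference was not tested. The leading chain was the annotated transcript ENSMUST00000020090.7, with 249 and 81 reads, or 94.7% and 97.6% of complete chains (not called, Fisher's exact test, adjusted p = 1). A second annotated transcript, ENSMUST00000190199.1, followed with 6 and 2 reads. The whole coding part was held by 258 of 265 and 82 of 84 reads.

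Sln (ENSMUSG00000042045.6, chr9:53850164-53854560) had 4 and 3 reads, or 3.58 and 3.08 CPM, too few to be tested. All 7 were of the annotated chain of 2 exons and held the whole coding part. Pln (ENSMUSG00000038583.13, chr10:53337667-53345987) had 6 and 5 reads, or 5.37 and 5.12 CPM, and was not called (1.04-fold, 0.251 to 4.09, exact binomial test, adjusted p = 1). Only 1 of the 6 reads of replicate 1 was spliced, while all 5 of replicate 2 were. The unspliced ones were 4 reads at chr10:53344183-53344267, after the coding part in the last exon, and 1 inside an intron. Spliced Pln was thus 1 read against 5, and with so few reads an order between the libraries was not detectable. The gene Cep85l, annotated on the other strand over Pln, had 2 and 11 reads in these libraries, and nothing used here says how strand was assigned.

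Casq1 (ENSMUSG00000007122.11, chr1:172209894-172219868, minus strand), the main calcium buffer of fast fibres, had 3756 and 3555 reads, or 3360 and 3644 CPM (mean 3502 ± 200.6, SD, n = 2). It was 1.18-fold higher in replicate 2 (1.13 to 1.24), called by the exact binomial test (adjusted p = 8.17e-11) and not with scatter added (edgeR exact test, adjusted p = 1). The annotated transcript ENSMUST00000003554.10 (11 exons, 1847 nt) had 3534 and 3310 reads, or 96.5% and 96.1% of complete chains. A chain that was not annotated came next, with 77 and 78 reads.

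That chain removes a further intron of 181 nt from inside exon 1 (chr1:172219657-172219837). The first coding base of the annotated transcript, at position 172219690, lies in it, so the chain lacks the annotated start codon. Over all chains this intron was in 79 reads of replicate 1 (2.1%) and 78 of replicate 2 (2.19%). The libraries had it in nearly equal shares.

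Casq2 (ENSMUSG00000027861.13, chr3:102086415-102146514, plus strand), the calsequestrin of slow fibres and heart, had 15 reads in replicate 1 and 36 in replicate 2, or 13.4 and 36.9 CPM. It was 3-fold higher in replicate 2 (1.6 to 5.89), with an adjusted p of 0.0032 by the exact binomial test and 1 by edgeR's exact test. The direction was that of the slow fibre list given above. The annotated transcript ENSMUST00000029454.11 took 14 of 15 and 33 of 36 reads.

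Srl (ENSMUSG00000022519.14, chr16:4480216-4541816, minus strand) encodes sarcalumenin, a glycoprotein of the lumen, and a shorter glycoprotein made by splicing. It had 2444 and 3699 reads, or 2186 and 3791 CPM (mean 2989 ± 1135, SD, n = 2). Replicate 2 was 1.89-fold higher (1.79 to 1.99, exact binomial test, adjusted p = 3.72e-132) and the difference was not called with scatter added (edgeR exact test, adjusted p = 1). Its leading model is long, at 6926 nt or more, in the length class whose median lies 0.32 on the log2 scale toward replicate 2, against 0.92 for Srl. The part of length in the difference was not tested.

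Srl was the gene here with the most even mix of forms. They differ in a long exon 2 of 1311 nt (chr16:4496405-4497715) and in the first 3 bases of the exon that follows it, where 2 splice acceptors lie 3 nt apart. The next lines give the end of exon 1 joined to that following exon with the 3 bases, in capitals, kept or left out.
Srl, 3 bases kept: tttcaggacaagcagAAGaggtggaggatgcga
Srl, 3 bases left out: tttcaggacaagcagaggtggaggatgcga
With the long exon the reading frame of the reference has 910 or 909 codons, and without it 473 or 472. The choice of acceptor therefore changes 1 codon, and the long exon 437 without a shift of frame.

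The form without the long exon and with the 3 bases kept led, though it is not annotated as a whole. It was in 1151 of the 2123 reads of replicate 1 that left the end of exon 1 by an intron (54.2%, 52.1 to 56.3) and in 1672 of 3386 of replicate 2 (49.4%, 47.7 to 51.1). The form with the long exon and the 3 bases, as in ENSMUST00000023161.7, had 707 (33.3%, 31.3 to 35.3) and 1303 reads (38.5%, 36.9 to 40.1). The form without either, as in ENSMUST00000090500.9, had 180 and 227 reads, and that with the long exon but without the 3 bases 81 and 175.

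The long exon was kept in 37.2% of these reads in replicate 1 (35.2 to 39.3) and 43.8% in replicate 2 (42.1 to 45.4). These intervals do not overlap, but they cover counting error only, and this share was not among those tested over all genes. The test fixed for isoform shares takes the leading chain, which was 53.7% of complete chains in replicate 1 and 48.8% in replicate 2, and it was not called (Fisher's exact test, adjusted p = 0.068). Over the alternatives that keep this chain, the adjusted p for Srl (Fisher's exact test) ran from 0.0362, with at least 50 reads in each library, to 0.0958, with at least 10. With Known models only this chain drops out, so the share tested is that of another form. It was -5.4 percentage points (replicate 1 minus replicate 2), with an adjusted p of 0.297.

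The choice of acceptor is given with and without the long exon. Without the 3 bases were 10.3% (8.35 to 12.6) of reads with the long exon and 13.5% (11.8 to 15.5) of those without it in replicate 1, and 11.8% (10.3 to 13.6) and 11.95% (10.6 to 13.5) in replicate 2. Whether the choice differed with the long exon was not tested. An exon of 36 nt that is not annotated (chr16:4489807-4489842) was in 14 and 17 reads.

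**Figure D4:**
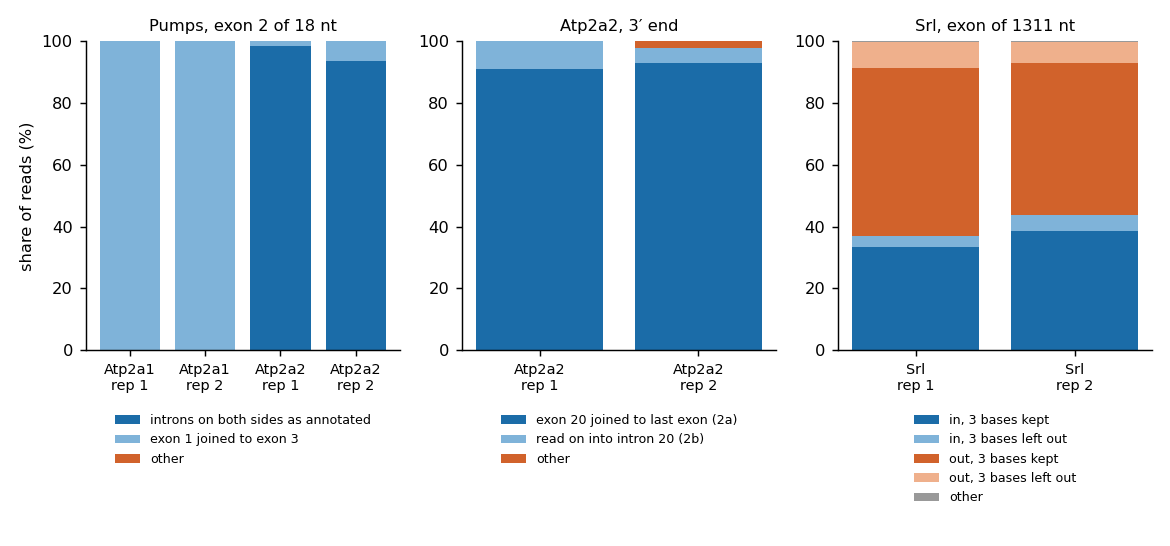
Shares of reads (percent, vertical axis) by splice form in replicates 1 and 2: exon 2 of the pumps (left), the 3′ end of Atp2a2 (middle) and the long exon with the 3-base choice of Srl (right). Atp2a1 is drawn wholly as exon 1 joined to exon 3, Atp2a2 mostly as annotated, and the long exon of Srl is kept in 37.2% and 43.8% of reads.

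Complete chains were 87.0% of Srl reads in replicate 1 (85.6 to 88.3) and 91.8% in replicate 2 (90.9 to 92.6), which was called (Fisher's exact test, adjusted p = 5.65e-07). Most of the gap came from unspliced reads, of which there were 222 and 168. Of these 222 and 167 overlapped the last exon of 3057 nt. Some Srl models also ran past the annotated gene: the lowest model end was at position 4476263, against 4480216 in the annotation. The models of the leading chain had 6926 to 7642 nt. The annotated ENSMUST00000090500.9, whose introns differ from that chain only by the 3 bases, has 3698 nt.

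Hrc (ENSMUSG00000038239.11, chr7:45335290-45338974, plus strand), a lumenal protein with long acidic, histidine-rich repeats, had 1582 and 1225 reads, or 1415 and 1256 CPM (mean 1335 ± 112.9, SD, n = 2). It was not called (1.03-fold higher in replicate 1, 0.96 to 1.12, exact binomial test, adjusted p = 0.703). Scaled by total counts instead of TMM it was called higher in replicate 1 (exact binomial test, adjusted p = 0.0185, log2 ratio 0.17).

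Few Hrc reads held the gene whole. Exon 1 of the reference transcript (ENSMUST00000085351.6, chr7:45335290-45337374, 2085 nt) carries 1948 of its coding bases. Models that start in exon 1 took 86 of 1582 reads in replicate 1 (5.44%, 4.42 to 6.67) and 63 of 1225 in replicate 2 (5.14%, 4.04 to 6.53). Models that start in exon 3 took 1432 (90.5%, 89.0 to 91.9) and 1102 reads (90.0%, 88.2 to 91.5). The most read chain joins exons 3 to 6, in models of 242 to 255 nt, with 1404 and 1071 reads, while the full annotated chain had 79 and 53. Complete chains were 6.32% and 5.96% of Hrc reads (not called, Fisher's exact test, adjusted p = 1). The level of Hrc therefore rests on short 3′ models: counted from Known, NIC and NNC models alone it was 95.7 CPM as a mean of the libraries, not 1335, and then below the inhibitor gene Mrln at 186.9 CPM. Where such a model begins is the position given to the model, and whether single reads begin there was not tested.

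A list of regulators and lumenal genes of the reticulum holds 25 symbols, of which Strit1 (0 reads) and Gm34302 name the same gene; 23 symbols had reads and 22 were tested. The exact binomial test called 2 toward replicate 1 and 4 toward replicate 2, against 4.46% and 7.15% of all genes. None was called with scatter added, nor was any under an unadjusted 0.05 by edgeR's exact test. The 6 genes were named after their values were seen. Tmem38b, a potassium channel of the reticulum, was 1.68-fold higher in replicate 1 (1.23 to 2.34), and Fkbp1a, which binds the ryanodine receptor, 1.39-fold (1.12 to 1.72). Higher in replicate 2 were the voltage sensor Cacna1s by 1.85-fold (1.69 to 2.03), Sypl2 by 1.53-fold (1.33 to 1.75), triadin (Trdn) by 1.27-fold (1.16 to 1.39) and the ryanodine receptor Ryr1 by 1.21-fold (1.11 to 1.32). Gm34302, an older symbol of Strit1 per the RefSeq gene table and the name under which these files count it, whose product DWORF is known to oppose the inhibitors, had 3 and 11 reads (not called, exact binomial test, adjusted p = 0.0942).

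Pumps and exchangers of other membranes were low. Of 9 such genes 7 had reads, 5 were tested and 1 was called by the exact binomial test, against 11.6% of all genes, 7.15% toward replicate 2. That gene was the sodium-calcium exchanger Slc8a3, with 28 and 50 reads (2.23-fold higher in replicate 2, 1.38 to 3.68). None was called by edgeR's exact test, nor was any under an unadjusted 0.05. The 9 genes summed to 114.5 and 143.5 CPM, against 151696 and 191442 CPM for Atp2a1.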

How the data were processed

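The deposited tables hold raw read counts per transcript model, per the file headers, with a class for each model (Known, NIC, NNC, ISM or Genomic), beside deposited annotations whose models are named by TALON; per the file headers they use mm10 and GENCODE M21. As for the aligner and its settings, these were not given in the sources used here. Reads of Known genes without spike-ins were summed per gene, and models of the 2 libraries were matched by intron chain. The genes and lists were chosen with earlier results of these data known. Levels were compared by a 2-sided exact binomial test against TMM library sizes (edgeR 4.0.16, R 4.3.3) for genes with 10 or more reads in all, and with edgeR's exact test at the common dispersion of the 2 libraries (0.0624). That dispersion was estimated with both libraries as 1 group, from the same difference that is then tested. Shares were compared by Fisher's exact test for genes with at least 20 reads in each library (scipy 1.17.1). All p-values were adjusted by Benjamini-Hochberg over every tested gene, with 0.05 as threshold. Intervals are 95% Wilson or exact intervals and, like the limit for a count of 0, cover counting error only; cDNA copies are not independent molecules.

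Named were all 10 genes, their leading chains, and genes of the lists, which were chosen as stated above. For the pumps each annotated 3′ end form and the 5 most read NIC or NNC chains were also named. Endothelial, smooth muscle, cardiac, platelet and lymphocyte, and skeletal muscle markers were summed. On simulated counts for 8381 genes the exact binomial level test called 30% of 50 genes changed 1.5-fold, 52% at 2-fold and all at 4-fold and 8-fold. On 3521 genes the share test called 94.5% of 200 genes set at 80 against 50 percent. The counts were drawn with counting error only and no scatter between libraries. Changes were placed only in genes with at least 50 reads (in all for levels, in each library for shares). These rates therefore do not describe libraries with scatter, such as the real ones.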

Additional observations from a re-analysis of the deposited data

Results flagged for a closer look

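Outside the comparisons, loci that are not annotated and lie on the strand opposite to Atp2a1 held 10 reads in replicate 1 and 10 reads in replicate 2, above the 3 reads that a count of 0 allows. Against 169580 and 186789 reads of Atp2a1 they are few, and opposite the other 9 genes such loci had 0 or 1 read in each library. Rabep2, annotated on the strand opposite to Atp2a1 and overlapping it, had 30 and 56 reads.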

How the results depend on the processing

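Directions of the 6 called genes were the same under total counts, DESeq2 size factors, no filter, and Known, NIC and NNC models. Total counts moved the median log2 ratio of all genes from -0.02 to 0.108 and the share of calls that were higher in replicate 2 from 61.6% to 43.6%, and added Hrc. With edgeR's common dispersion, 24 of all genes and 1 of the 10 were called, in place of 974 and 6. For the leading isoform, at least 50 reads gave 2 of the 10 genes in place of 1, and Known models only gave 0 of them and 4 of all genes in place of 16. The last intron share had 7 of all genes with at least 50 reads in place of 4. Known against all other classes gave 41 of all genes in place of 65 for complete chains (the cause was not tested) and 1 of the 10 in place of 2, since Atp2a1 has no Known read. For the same reason the sum of the 10 genes was 8032 CPM from Known models, against 179861 CPM, and 158991 to 200731 CPM with 1 library left out. Counting a chain as complete where either library gives it a complete class, an alternative chosen after seeing the data, changed no call of the 10 genes. A level test without replicate 1 or 2, and SERCA1 end shares from Known models, gave no value. No paired analysis was possible because there is 1 group. Depth limits Sln, Pln, Atp2a3 and Casq2 most.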
